A study of Homo sapiens with 4 samples.

Results

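The genes described here are the enzyme and binding protein families that prepare fatty acids for oxidation and burn them. They were chosen by symbol: acyl-CoA synthetases of short, medium, long and very long chains (ACSS, ACSM, ACSL, ACSBG), acyl-CoA thioesterases (ACOT), carnitine acyltransferases (CPT1, CPT2, CRAT, CROT), enzymes of β-oxidation and its electron transfer (ACAA, ACAD, ACOX, HADH, ECH, ECI, ETF), fatty acid binding proteins (FABP) and pyruvate dehydrogenase kinases (PDK). In all, 46 of the 14714 genes with a named probe on the array belonged to them. RNA came from T47D cells, an estrogen receptor-positive line from a human ductal carcinoma of the breast. The tested cells had been infected with lentivirus encoding FDXR sh434, an shRNA against ferredoxin reductase, and the control cells with virus encoding shControl. Both groups were grown in RPMI-1640 with serum and both carried a viral shRNA, and only 1 shRNA against FDXR was put on arrays. There were 4 Affymetrix arrays, 2 for each group, whose labels call them biological replicates.

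A fatty acid is first joined to coenzyme A by an acyl-CoA synthetase, and a thioesterase can undo that step. Long-chain acyl groups then enter the mitochondrion as carnitine esters, made by CPT1 on the outer membrane and turned back to acyl-CoA by CPT2 on the inner one, after which the β-oxidation enzymes shorten the chain and hand electrons to the respiratory chain through the electron transfer flavoproteins. CPT1 is the step at which entry is controlled, through its inhibitor malonyl-CoA, and PDK4 holds back pyruvate dehydrogenase, which turns cells from glucose towards fat as fuel.

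The 46 members were represented by 46 probes, the brightest of each gene. Probes could not be named for a further 31 protein-coding genes of these families, which were therefore left out, among them ACADM, ACADVL, ACSL3, CPT1B, HADHA, HADHB, ETFA, ETFB, PDK1, FABP4 and FABP5, so the oxidation and binding families were covered in part. The same holds for FDXR, so the knockdown was not checked on these arrays. The paper measured FDXR and CPT1A in T47D cells with this shRNA by Q-PCR and immunoblot, and reported less CPT1A after FDXR depletion. Of 12 luminal breast markers 10 were measured, and all 10 were above the median signal of all probes. Their summed log2 signals were 97.3 and 97.6 in FDXR sh434 cells, against 97.8 and 97.9 in shControl cells. Single luminal markers ran in both directions: with the signal-dependent spread described below, limma gave PGR, the progesterone receptor, a log2 fold change of -0.75 (adjusted p = 8.26e-05), SPDEF 0.52 (adjusted p = 0.00578) and KRT18 0.26 (adjusted p = 0.0105), while ESR1, the estrogen receptor, stood at -0.37 (adjusted p = 0.0513). The mean signal of each of the 3 basal and 2 endothelial markers measured was under the median. Of 2 blood markers measured, CD68 lay above it, at 6.76 and 6.78 in FDXR sh434 cells, against 6.49 and 6.47 in shControl cells. VIM, listed for fibroblasts, also lay above it, at 5.03 and 5.23 in FDXR sh434 cells and 5.19 and 4.87 in shControl cells. The fibroblast marker LUM gave log2 signals of 3.97 and 4.21 in FDXR sh434 cells, against 6.04 and 5.87 in shControl cells (limma, adjusted p = 0.0213), while DCN, another fibroblast marker, stayed at 2.24 and 2.28 against 2.13 and 2.16. The 2 adipocyte markers measured, PLIN1 and LEP, were under the median signal, with summed log2 signals of 9.06 and 9.03 in FDXR sh434 cells and 8.47 and 8.0 in shControl cells. The part of these markers in the results was not tested.

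After FDXR knockdown, CPT1A, PDK4 and the thioesterases ACOT4 and ACOT6 gave lower signals, and the synthetases ACSL1, ACSS2 and ACSS3 gave higher ones. No member passed limma without a trend, in which every probe draws on the same prior spread: 0 were higher and 0 lower at an adjusted p under 0.05, where 0.298% of the 38598 probes were higher and 0.402% lower. Before adjustment, 6 members were higher and 6 lower at a p under 0.05, against 9.44% and 7.82% of all probes. By the same rule, 1830 of the 14714 named genes were higher and 1136 lower. With the signal-dependent spread, a second limma fit that lets the prior spread follow the signal, 3 members were higher and 4 lower. These are 6.52% and 8.7% of the members, against 5.02% and 3.41% of all probes and 7.4% and 4.06% of all genes with a named probe. The share of higher members was thus near the background. All 4 lower members, and ACSM2A, stand in the study's supplementary gene tables, which were drawn from these arrays, so their direction is not independent evidence. Those tables list genes that the paper calls positively regulated by FDXR. PDK4 and ACSM2A are members only because the tables name their probes, so the share of lower members was shaped by that source. Among the 41 members outside the tables, 3 were higher and 0 lower in that fit, a split that leaving out the tabled genes favours. The calls thus depended on how the spread was modelled: the median residual SD was 0.162 in the dimmest quartile of probes and 0.0728 in the brightest, and 29 of the members lay at or above the median signal.

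Over all members, 28 log2 fold changes were positive and 18 negative, with a median of 0.07, beside a median of 0.03 over all named genes. Both FDXR sh434 arrays were above both shControl arrays for 17 members and below them for 11. Such a separation upward was found for 25.6% of all probes and downward for 23.1%, against 37% and 23.9% of the members. Among all named genes the shares were 31.4% and 22.6%. At or above the median signal they were 48.3% and 24.1% of the 29 members there, against 38.5% and 23.1% of the named genes. The downward share was thus near the background. The upward share lay above that of named genes, a difference that rests on few members and was not tested. By step, 11 of the 16 activating enzymes were positive (median 0.17), 8 of the 11 thioesterases negative (median -0.12), 4 of the 5 carnitine acyltransferases positive (median 0.20) and 9 of the 11 oxidation genes positive (median 0.09). No step was tested as a group.

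**Figure D1:**
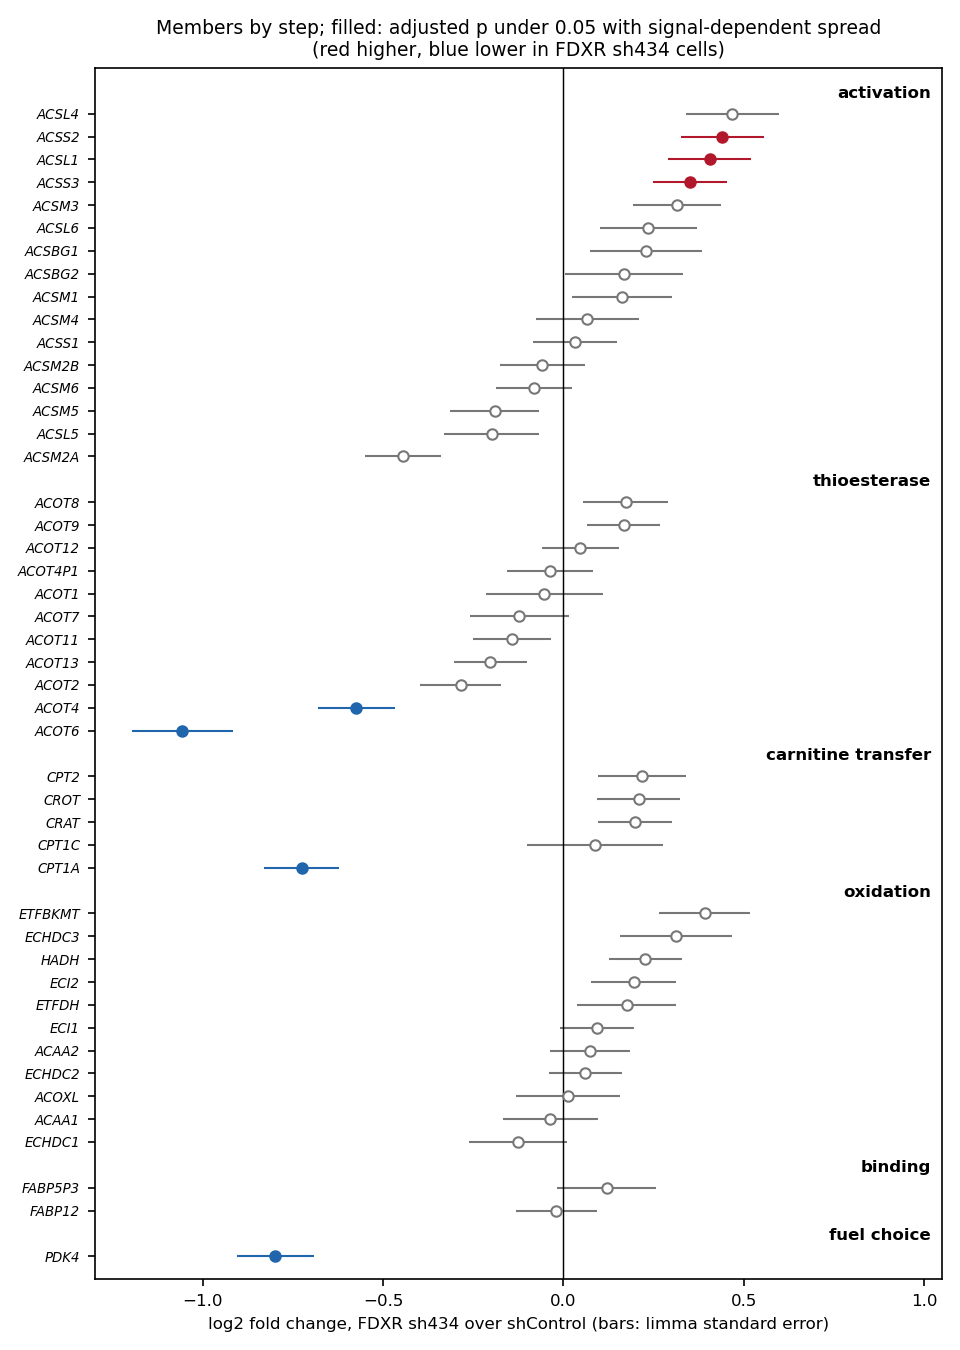
Log2 fold change of each of the 46 members, FDXR sh434 over shControl (x axis), grouped by step; bars are limma standard errors from 2 arrays per group. Filled points passed an adjusted p of 0.05 with the signal-dependent spread, 3 of them higher (red) and 4 lower (blue) in FDXR sh434 cells; open points did not.

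The sequences in front of 4 of the 7 called members are shown because these genes moved in both directions: CPT1A, PDK4 and ACOT4 were lower and ACSL1 was higher. Each is the stretch of 250 bases before the start of transcription in RefSeq, build GRCh38.p14, written 5′ to 3′ on the strand of the gene. Capitals mark matches, on either strand, to 6 motifs: the nuclear receptor half-site AGGTCA, the sterol regulatory element core TCACNCCAC, the GC box CCGCCC, the box named for its letters CCAAT, the E-box CACGTG and the NRF1 core GCATGCGC. The stretches are CPT1A at chr11:68844278-68844527 (minus strand), PDK4 at chr7:95596517-95596766 (minus strand), ACOT4 at chr14:73591623-73591872 (plus strand) and ACSL1 at chr4:184825969-184826218 (minus strand, the most upstream of 5 starts).
CPT1A: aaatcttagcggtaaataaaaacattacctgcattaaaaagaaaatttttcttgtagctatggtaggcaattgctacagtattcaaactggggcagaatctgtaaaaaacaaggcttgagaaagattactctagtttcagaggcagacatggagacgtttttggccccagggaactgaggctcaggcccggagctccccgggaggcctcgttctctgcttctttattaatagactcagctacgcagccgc
PDK4: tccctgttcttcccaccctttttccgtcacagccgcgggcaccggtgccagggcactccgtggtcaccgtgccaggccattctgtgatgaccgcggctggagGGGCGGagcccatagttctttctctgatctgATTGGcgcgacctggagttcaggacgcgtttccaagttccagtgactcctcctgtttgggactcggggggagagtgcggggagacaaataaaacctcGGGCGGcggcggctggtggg
ACOT4: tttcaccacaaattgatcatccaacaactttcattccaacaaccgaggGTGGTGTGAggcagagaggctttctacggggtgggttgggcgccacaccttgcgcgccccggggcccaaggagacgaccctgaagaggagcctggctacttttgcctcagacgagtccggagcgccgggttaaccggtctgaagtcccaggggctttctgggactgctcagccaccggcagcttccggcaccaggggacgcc
ACSL1: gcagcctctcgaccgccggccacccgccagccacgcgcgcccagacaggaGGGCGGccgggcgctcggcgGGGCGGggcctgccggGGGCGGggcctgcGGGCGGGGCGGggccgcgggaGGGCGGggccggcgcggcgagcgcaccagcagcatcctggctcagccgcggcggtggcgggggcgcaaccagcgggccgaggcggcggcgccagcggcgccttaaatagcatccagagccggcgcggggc

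The CPT1A stretch held none of the 6 motifs. PDK4 had 2 GC boxes and 1 CCAAT box, and ACSL1 had 6 GC boxes, of which a pair overlaps. ACOT4 had 1 sterol regulatory element core, on the reverse strand. In the table of promoter windows, which run from 250 bases before to 50 after a start, 35 members had 60 windows and 11 members had none. The sterol core lay in 5 of these windows (8.33%), those of ACOT4, ACSL1, ACSL6 and ECHDC2, against 1.13% of all 35116 windows. The ECHDC2 windows overlap and hold the same site, so it is counted again. The ACSL1 match lay at another start of that gene, not in the stretch shown. Windows of one gene are not independent, and these shares were not tested. The half-site was in 11.7% of the members' windows and 13.8% of all, the GC box in 48.3% and 45%, the CCAAT box in 28.3% and 34.6%, the NRF1 core in 3.33% and 3.05%, and the E-box in 0% and 7.26%. Shorter motifs match more often by their length alone, and a match is a run of letters, not a bound site.

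CPT1A is the liver-type carnitine palmitoyltransferase, which makes long-chain acylcarnitines. Its log2 signals were 9.20 and 9.11 in FDXR sh434 cells, against 9.89 and 9.88 in shControl cells. The groups did not overlap, and the gap between them was several times the gap between arrays of one group. The log2 fold change was -0.73 (SE 0.104), a signal at 0.605 of shControl. Its adjusted p was 0.0575 by limma without a trend and 0.000141 with the signal-dependent spread. In RNA of whole cultures, fewer cells that express a gene and less of its RNA per cell cannot be told apart.

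The other 4 carnitine acyltransferases gave positive fold changes, and none passed either fit. CPT2, which reverses the CPT1 reaction inside the mitochondrion, gave 7.61 and 7.71 in FDXR sh434 cells, against 7.34 and 7.54 in shControl cells (log2 fold change 0.22, SE 0.121). A dimmer CPT2 probe gave 0.10 (SE 0.122), with overlapping groups. CRAT, the acetyltransferase of short acyl groups, gave 8.99 and 8.93 against 8.79 and 8.74 (0.20, SE 0.103), and its groups stood apart. CROT, the octanoyltransferase of peroxisomes, gave 6.98 and 6.99 in FDXR sh434 cells, against 6.87 and 6.68 in shControl cells (0.21, SE 0.116). CPT1C, the form best known from neurons, gave 4.75 and 5.24 in FDXR sh434 cells and 4.82 and 4.99 in shControl cells. Its groups overlapped, and its log2 fold change of 0.09 had an SE of 0.188.

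The fold change of CPT1A was lower than that of CPT2 by 0.94 on the log2 scale (difference -0.94, SE 0.141, 95% interval -1.55 to -0.34). The difference from CPT1C was -0.81, with an interval of -2.13 to 0.51 that includes 0. In 8 such comparisons of relatives, each an exact permutation test over the arrays, two-sided, p was 0.333 before and after adjustment over the 8. This is the smallest p that 2 arrays against 2 can give, so intervals from 2 residual degrees of freedom are given instead. They are not adjusted for the 8 comparisons, whose pairs were chosen with earlier values known.

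**Figure D2:**
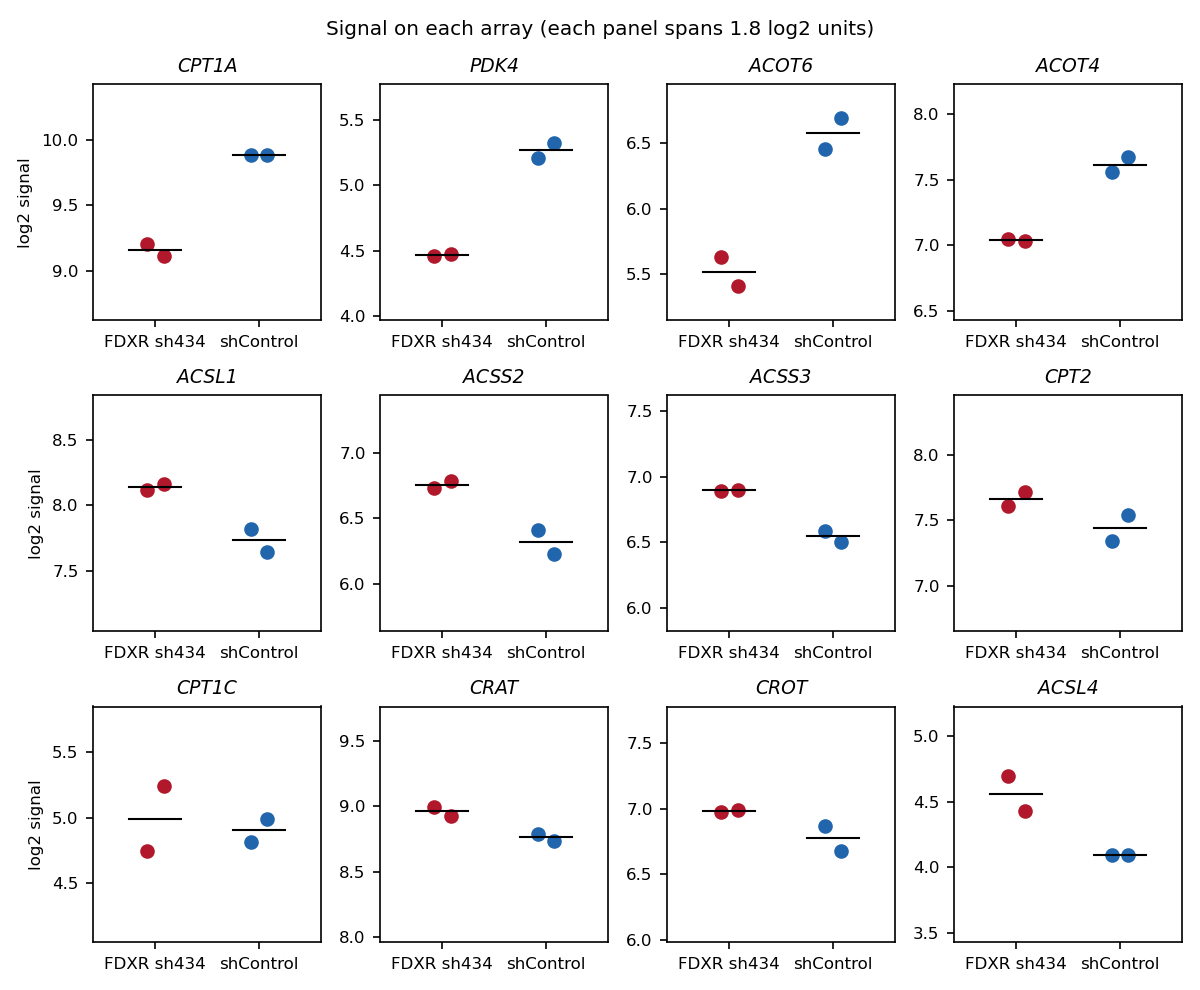
Deposited log2 signal (y axis) on each array for 12 members, with FDXR sh434 in red and shControl in blue; lines are means of 2 arrays and every panel spans the same height. CPT1A, PDK4, ACOT6 and ACOT4 lie lower in FDXR sh434 cells without overlap, whereas the CPT1C groups overlap.

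PDK4, a kinase that inactivates pyruvate dehydrogenase and whose transcript is known to rise in fasting, gave 4.46 and 4.47 in FDXR sh434 cells, against 5.21 and 5.32 in shControl cells. The groups did not overlap, with a log2 fold change of -0.80 (SE 0.106) and adjusted p of 0.0526 by limma without a trend and 0.00686 with the signal-dependent spread. Its probe, named only through the study's tables, lay close to the median signal: both FDXR sh434 values were under the array medians of 4.76 and 4.77, and both shControl values above theirs. No array background is known for it.

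Thioesterases, which release free fatty acids from coenzyme A, held the lowest fold change of all members. ACOT6, whose mouse form is a peroxisomal thioesterase, gave 5.63 and 5.41 in FDXR sh434 cells, against 6.46 and 6.70 in shControl cells. Its log2 fold change was -1.06 (SE 0.140), a signal at 0.481 of shControl, with adjusted p of 0.0526 by limma without a trend and 0.00133 with the signal-dependent spread. A dimmer ACOT6 probe, the one in the study's tables, gave 4.13 and 4.65 in FDXR sh434 cells, against 4.82 and 4.99 in shControl cells. It ran the same way at -0.52 (SE 0.192) and passed neither fit (adjusted p = 0.264 by limma without a trend and 0.152 with the signal-dependent spread).

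ACOT4, a peroxisomal thioesterase known for acting on succinyl-CoA, gave 7.05 and 7.03 in FDXR sh434 cells, against 7.56 and 7.67 in shControl cells. The groups were well apart, with a log2 fold change of -0.57 (SE 0.106) and adjusted p of 0.0869 by limma without a trend and 0.00317 with the signal-dependent spread. ACOT2, the mitochondrial long-chain enzyme, gave 7.85 and 7.88 against 8.07 and 8.23 (-0.28, SE 0.112), apart but past neither fit. ACOT1, its cytosolic counterpart, gave 6.17 and 6.44 in FDXR sh434 cells and 6.19 and 6.52 in shControl cells, which overlap (-0.05, SE 0.163). ACOT1 and ACOT2 are close copies, so a probe of either may also read the other. The fold change of ACOT4 differed from that of ACOT2 by -0.29 (SE 0.0334, 95% interval -0.43 to -0.15), and from that of ACOT1 by -0.52, with an interval of -1.29 to 0.25 that includes 0. ACOT6 differed from ACOT1 by -1.0, with an interval of -2.08 to 0.07.

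None of the other ACOT genes was called. ACOT13, a mitochondria-associated thioesterase, gave 8.45 and 8.46 in FDXR sh434 cells, against 8.64 and 8.68 in shControl cells (-0.20, SE 0.101). The rest ranged from ACOT11 at -0.14 to ACOT8 at 0.17, and the pseudogene ACOT4P1 stood at -0.04.

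ACOT1, ACOT2, ACOT4 and ACOT6 lie next to each other on chromosome 14, and the genes beside them also gave mostly negative fold changes. RIOX1, a ribosomal oxygenase before the cluster, gave 7.44 and 7.42 in FDXR sh434 cells, against 7.81 and 7.73 in shControl cells (-0.34, adjusted p = 0.0284 with the signal-dependent spread, by limma). PNMA1, known as a target of autoantibodies in neurological disease, lies behind the cluster and gave 8.46 and 8.50 in FDXR sh434 cells, against 8.95 and 8.96 in shControl cells (-0.48, adjusted p = 0.00194 in the same fit). Neither passed limma without a trend. HEATR4, whose interval in RefSeq overlaps ACOT1 to ACOT6, stood at -0.37 (SE 0.145) and PTGR2 at -0.22 (SE 0.118), while MIDEAS stood at 0.01 (SE 0.134). These neighbours were chosen for their place after the ACOT values were known.

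**Figure D3:**
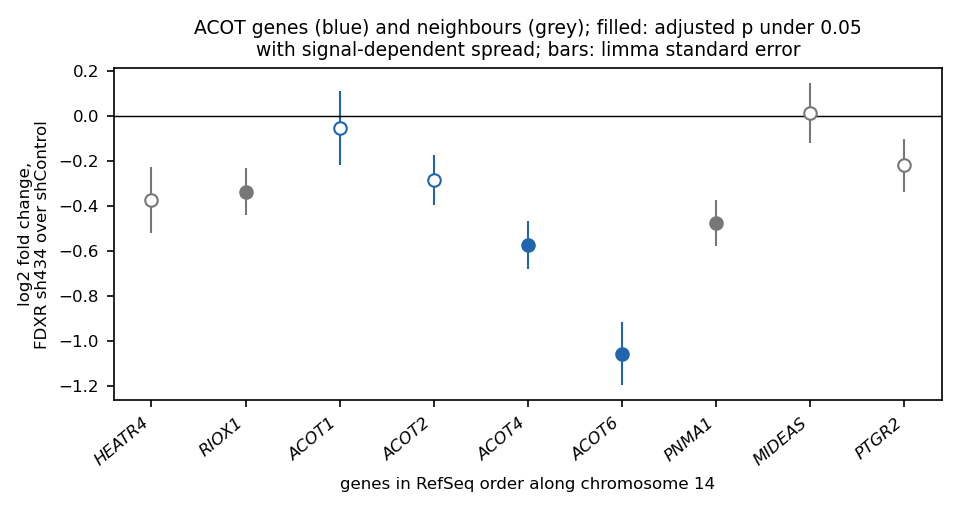
Log2 fold change, FDXR sh434 over shControl (y axis), of the ACOT genes (blue) and their measured neighbours (grey) in RefSeq order on chromosome 14, not to distance; bars are limma standard errors from 2 arrays per group. Filled points, RIOX1, ACOT4, ACOT6 and PNMA1, passed an adjusted p of 0.05 with the signal-dependent spread.

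The 3 higher members were all enzymes that activate fatty acids or acetate. ACSL1, a long-chain acyl-CoA synthetase of the mitochondrial outer membrane and endoplasmic reticulum, gave 8.12 and 8.17 in FDXR sh434 cells, against 7.82 and 7.65 in shControl cells. The groups stood apart, with a log2 fold change of 0.41 (SE 0.114) and adjusted p of 0.175 by limma without a trend and 0.0159 with the signal-dependent spread. It was the only 1 of the 4 ACSL genes measured that lay above the median signal.

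ACSL4, which prefers arachidonic acid and is known from ferroptosis, had the highest fold change of all members, yet from a dim probe. Its log2 signals were 4.70 and 4.43 in FDXR sh434 cells, against 4.09 and 4.09 in shControl cells (0.47, SE 0.129), with adjusted p of 0.169 by limma without a trend and 0.122 with the signal-dependent spread. ACSL6, best known from brain, gave 4.02 and 3.80 against 3.58 and 3.77 (0.24, SE 0.133), and its groups were barely apart. ACSL5, an isoform of intestine and liver, gave 3.49 and 3.51 in FDXR sh434 cells, against 3.84 and 3.56 in shControl cells (-0.20, SE 0.131), the one negative ACSL. The fold changes of ACSL1 and ACSL5 lay 0.60 apart, given as a description only, since the pair was chosen with their values known and the ACSL5 probe was dim.

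ACSS2, which makes acetyl-CoA from acetate in cytosol and nucleus, gave 6.73 and 6.78 in FDXR sh434 cells, against 6.41 and 6.23 in shControl cells. The groups did not overlap, and the log2 fold change was 0.44 (SE 0.115), with adjusted p of 0.155 by limma without a trend and 0.0307 with the signal-dependent spread. ACSS3, a mitochondrial enzyme that activates propionate, gave 6.89 and 6.90 against 6.59 and 6.50 (0.35, SE 0.104), with adjusted p of 0.188 and, just under the threshold, 0.048. ACSS1, the mitochondrial acetate enzyme, gave 6.49 and 6.44 in FDXR sh434 cells and 6.33 and 6.53 in shControl cells, with overlapping groups (0.03, SE 0.117). The interval of the difference from ACSS1 included 0 both for ACSS2 (-0.43 to 1.25) and for ACSS3 (-0.30 to 0.94), so the family was not shown to divide.

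The medium-chain enzymes were mostly dim, with 5 of 7 under the median signal. ACSM3, one of the 2 above it, gave 6.90 and 6.86 in FDXR sh434 cells, against 6.68 and 6.45 in shControl cells (0.31, SE 0.122, adjusted p = 0.116 with the signal-dependent spread, by limma). ACSM2A, a kidney and liver enzyme in the study's tables, gave 2.72 and 2.84 in FDXR sh434 cells, against 3.24 and 3.21 in shControl cells. Its groups stood apart (-0.44, SE 0.106), yet the probe was dim and the adjusted p was 0.134 by limma without a trend and 0.167 with the signal-dependent spread. The remaining ACSM genes ranged from -0.19 to 0.16. Of the very long-chain pair, ACSBG2 gave 4.88 and 4.49 in FDXR sh434 cells, against 4.42 and 4.61 in shControl cells, and overlapped (0.17, SE 0.165), and ACSBG1 stood at 0.23.

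**Figure D4:**
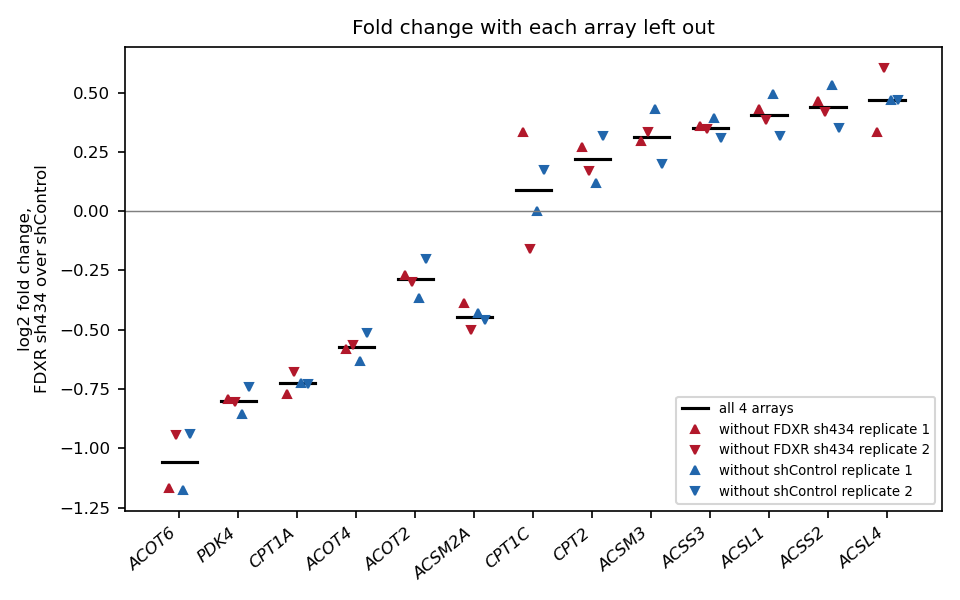
Log2 fold change, FDXR sh434 over shControl (y axis), of 13 members with all 4 arrays (black lines) and with each array left out (triangles). CPT1A, PDK4, ACOT6 and ACOT4 stayed negative and ACSL1, ACSS2, ACSS3 and ACSL4 stayed positive whichever array was left out, whereas CPT1C turned to -0.161 without FDXR sh434 replicate 2.

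The oxidation genes changed little, and none passed either fit, although 9 of 11 fold changes were positive, 6 genes had both FDXR sh434 arrays above both shControl arrays and 0 had them below, where 31.4% of all named genes stood apart upward and 22.6% downward. HADH, the short-chain hydroxyacyl-CoA dehydrogenase, gave 7.01 and 7.03 in FDXR sh434 cells, against 6.79 and 6.80 in shControl cells (0.23, SE 0.10, adjusted p = 0.168 with the signal-dependent spread, by limma). ETFDH, which passes electrons from the flavoprotein to ubiquinone, gave 7.57 and 7.47 in FDXR sh434 cells and 7.49 and 7.20 in shControl cells, which overlap (0.18, SE 0.137). ECI1, an isomerase for unsaturated chains, gave 7.13 and 7.20 against 7.07 and 7.07 (0.09, SE 0.102). ACAA2, the mitochondrial thiolase, gave 7.27 and 7.18 in FDXR sh434 cells and 7.09 and 7.21 in shControl cells, with overlap (0.07, SE 0.111).

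Of the other oxidation genes, ECHDC3, an enoyl-CoA hydratase relative, gave 5.93 and 5.71 in FDXR sh434 cells, against 5.35 and 5.67 in shControl cells (0.31, SE 0.156). ACOXL, an acyl-CoA oxidase relative, was dim and stood at 0.01. The peroxisomal thiolase ACAA1 stood at -0.04. The highest value was 0.39 (SE 0.126) for ETFBKMT, a methyltransferase that modifies a subunit of the electron transfer flavoprotein rather than an oxidation enzyme, which the symbol rule also took in. It was the only 1 of the 11 to pass limma without a trend before adjustment, with an adjusted p of 0.214. Among binding proteins only FABP12 and the pseudogene FABP5P3 were measured, both under the median signal. FABP5P3 gave 4.47 and 4.43 in FDXR sh434 cells and 4.18 and 4.48 in shControl cells, which overlap (0.12, SE 0.137). Its dimmer probe gave 2.52 and 2.44 in FDXR sh434 cells, against 2.19 and 2.20 in shControl cells, apart but past neither fit (0.28, SE 0.103). FABP12 stood at -0.02.

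The surrounding pathway was read from a list of 86 further genes for uptake, auxiliary and peroxisomal enzymes, ketone bodies, regulators, pyruvate dehydrogenase and lipid droplets, of which 46 were measured. None passed limma without a trend. Before adjustment, p was under 0.05 for 10 genes that were higher and 9 that were lower, against the 9.44% and 7.82% of all probes given above. At or above the median signal, 1578 of the 9790 named genes were higher and 812 lower by the same rule. With the signal-dependent spread, 6 genes of the list were higher and 3 lower. Of the list, 43 genes lay at or above the median signal. The calls are 13% and 6.52% of the list, against 10.9% and 5.74% of the named genes at such signals. The higher share was thus near the background. The 3 lower genes, SLC22A5, PRKAA2 and PRKAB2, had probes named only through the study's tables from these arrays. They are also among the 9 lower before adjustment. No reading is therefore drawn from the lower share. The median log2 fold change was 0.06, beside 0.03 over all named genes.

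SLC22A5 (OCTN2), the carrier that brings carnitine into cells, gave 6.54 and 6.69 in FDXR sh434 cells, against 7.36 and 7.15 in shControl cells (log2 fold change -0.64, adjusted p = 0.00565 with the signal-dependent spread, by limma). It and CPT1A, which uses carnitine, were both lower. Both stand in the study's tables from these arrays, so their shared direction is not independent evidence. By mass spectrometry, the paper found carnitine itself unaffected by FDXR depletion. CD36, a fatty acid transporter, gave 4.93 and 5.16 in FDXR sh434 cells, against 4.69 and 4.34 in shControl cells (0.53), and passed neither fit.

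The AMP-activated kinase relieves CPT1 of inhibition by phosphorylating the acetyl-CoA carboxylases that make malonyl-CoA. Its catalytic subunit PRKAA2 gave 6.25 and 5.91 in FDXR sh434 cells, against 6.85 and 6.83 in shControl cells (-0.76, adjusted p = 0.0055 with the signal-dependent spread, by limma). Its subunit PRKAB2 gave 7.21 and 7.24 against 7.75 and 7.67 (-0.48, adjusted p = 0.0056 in that fit), and PRKAG2, which did not pass, stood at -0.43. ACACA, one of the carboxylases, gave 9.26 and 9.28 in FDXR sh434 cells, against 8.86 and 8.84 in shControl cells (0.42, adjusted p = 0.00274 in that fit). SIRT5, a mitochondrial deacylase, was also higher (0.58), whereas the coactivator PPARGC1A stood at -0.44 and passed neither fit. ACACB, the other carboxylase on the list, had overlapping groups (0.10, SE 0.136). The listed regulators MLYCD and STK11 stood at 0.16 and 0.25. None of these passed either fit, and a joint shift of the regulators was not tested. SLC22A5, PRKAA2, PRKAB2, PRKAG2, PPARGC1A and MGLL stand in the study's tables from these arrays. All but MGLL had probes named only through those tables, which list genes the paper calls positively regulated by FDXR. The kinase subunits PRKAA1, PRKAB1 and PRKAG1 were on the list but had no named probe. Only subunits that the study lists as lowered could thus be read, and their shared direction is not independent evidence.

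On the lipid droplet side, PNPLA2, the lipase that starts triglyceride breakdown, gave 7.66 and 7.70 in FDXR sh434 cells, against 7.13 and 7.24 in shControl cells (0.50, adjusted p = 0.00578 with the signal-dependent spread, by limma). DGAT1, which makes triglyceride, was higher as well (0.38), and MGLL, the monoglyceride lipase, stood at -0.42 and passed neither fit. NUDT19 (0.59), which cleaves coenzyme A in peroxisomes, and PECR (0.47), a peroxisomal enoyl-CoA reductase, completed the 6 higher genes. None of the 6 measured genes of the pyruvate dehydrogenase complex and its phosphatase, on which PDK4 acts, passed either fit, with log2 fold changes from -0.28 to 0.20.

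**Figure D5:**
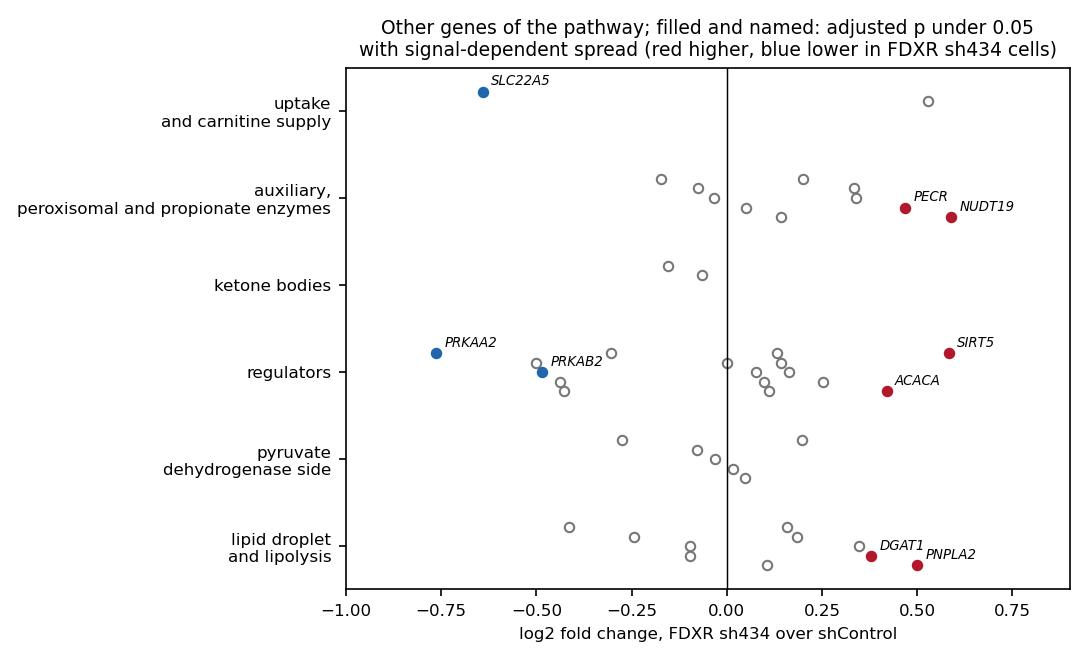
Log2 fold change, FDXR sh434 over shControl (x axis), of the 46 measured genes of the surrounding pathway, 1 row per group with points spread vertically for legibility. Filled, named points passed an adjusted p of 0.05 with the signal-dependent spread: 6 were higher (red) and 3 lower (blue) in FDXR sh434 cells.

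The calls rested on few arrays. With the signal-dependent spread and 1 array left out in turn, CPT1A and ACOT6 were called every time. PDK4, ACOT4 and ACSL1 were called without either shControl array but not without FDXR sh434 replicate 1 or 2. ACSS2 and ACSS3 were called only without shControl replicate 1. In these fits the lone array of a group is assumed to vary like the others.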

How the data were processed

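RNA of T47D cells was measured on 4 arrays, 2 per group, and the authors deposited log2 signals per probe. Array medians ran from 4.76 to 4.78. The summary and scaling of probes are not given in the sources used here. Among tools, the submitters' processing notes list limma 3.50.3. The virus was a lentivirus, per the methods of the paper. The source names of 3 arrays read T48D, T49D and T50D, and were taken as T47D, as in the growth protocol. No scanner values were used, so signal over background is unknown, and precision is limited by how few arrays there are.

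Of 38598 probes, 15715 had 1 gene symbol in the array annotation, 0 several and 22883 none, and 36 of the last were named through the study's supplementary gene tables. Members were 46 genes (49 probes), of which 2 were named through those tables alone (ACSM2A and PDK4) and 2 are pseudogenes. The members, the further pathway list and the motifs were chosen with earlier results of these data known. The genes described in full were those past the threshold in either fit, those in the study's tables, all CPT, CRAT, CROT, ACSL and PDK genes, and the brightest of each other family.

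Differences were tested with limma 3.58.1 in R 4.3.3, on condition alone, without a filter and with adjusted p (Benjamini-Hochberg, all 38598 probes) held to 0.05, the package and threshold of the paper's methods (2 residual and 3.45 prior degrees of freedom). The signal-dependent spread used an intensity trend with robust estimation. Other alternatives were a replicate block, centring on array medians, quantile normalization, a filter that drops dim probes (mean under that of the median probe), named probes only, repeated values entered once, the mean of a gene's probes, the methods' t-test and each array left out. The last and the block were also run with the signal-dependent spread, chosen after seeing the data. The fits were also run on simulated data with independent noise and only upward changes, placed in probes at or above the median signal. That setting is simpler than these arrays, so it does not vouch for the calls. If replicates share a culture, p-values measure only technical spread. Promoter windows came from RefSeq (GRCh38.p14).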

Additional observations from a re-analysis of the deposited data

How the results depend on the processing

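The calls changed with the spread model, the probes tested, the block and the arrays included. Of members, 3 were higher and 4 lower with the signal-dependent spread and, as the same 7 genes, without dim probes. PDK4 passed that filter only through its shControl values, as its FDXR sh434 values were under the array medians. With named probes only, 0 were higher and 3 lower (CPT1A, ACOT4, ACOT6). That fit took names from the array annotation alone, so PDK4 and ACSM2A were not in it. The replicate block gave 0 higher and 0 lower members and 0 further pathway genes, and with the signal-dependent spread 3, 5 (ACOT2 added) and 13. Replicate 1 of both groups deviated with a correlation of 0.002 over all probes, so no shared deviation was seen. Whether arrays with the same number were handled together is not known. Further pathway genes past the threshold numbered 9 with the signal-dependent spread and 8 without dim probes. With each array left out, calls were 0 in limma without a trend. With the signal-dependent spread they were 0 to 5 members higher, 2 to 5 lower and 0 to 16 pathway genes, with 0 members higher without FDXR sh434 replicate 1 or 2 and 5 without shControl replicate 1. The methods' t-test, both rescalings, repeated values entered once and the mean of a gene's probes gave 0 called members. The number of probes called was 115 higher and 155 lower by limma without a trend, 1937 and 1318 with the signal-dependent spread, 1546 and 995 without dim probes, 390 and 297 with named probes only, 2208 and 1517 with the block and the signal-dependent spread, and 0 and 0 with the block alone, the methods' t-test or any array left out. The median log2 fold change of the members ran from 0.053 to 0.089. Leaving out 1 array turned the sign of 13 members, none of them called, over these ranges (a further value of turned sign follows its range): ACOT7 (-0.257 to 0.012), ACSM4 (-0.086 to 0.219, with -0.006), ACOT1 (-0.219 to 0.113, with 0.081), ACSM2B (-0.158 to 0.041), ACSBG2 (-0.025 to 0.361), ACOT4P1 (-0.123 to 0.049, with 0.023), CPT1C (-0.161 to 0.335), ACOXL (-0.151 to 0.178, with -0.037), ACSS1 (-0.066 to 0.131), ACAA1 (-0.175 to 0.103), ECHDC1 (-0.272 to 0.02), FABP5P3 (-0.033 to 0.273) and FABP12 (-0.103 to 0.064). Quantile normalization turned ACSS1 to -0.023 and FABP12 to 0.041. The cause was not tested.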
